A study of Mus musculus with 2 samples.

Results

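Meg3, Rian, Mirg, Dlk1, H19, Peg3, Cdkn1c, Plagl1 and Grb10 are 9 imprinted genes, taken by symbol from the 32285 genes counted in nuclei of the mouse tibial callus. They were chosen by their measured values across the populations of this library, so their levels are given as a description and no test was made on them. The library was made at day 5 after a musculoskeletal traumatic injury (MTI), in which an open, non-stabilized tibial fracture was combined with a crush of the surrounding leg muscles. Nuclei of the activated periosteum and the hematoma or callus were pooled from 3 or 4 C57BL6 mice, sorted on a nuclear dye and sequenced from the 3′ end, with intronic and exonic reads counted. A second library, from day 1 after a fracture without muscle injury in mice of the same genotype, is described on its own, since day and injury differ together between them. The study mixed adult males and females in its groups, and the pooled animals cannot be separated in these counts.

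At an imprinted gene the copies inherited from the mother and the father are treated differently, and 1 of them is silenced in a way set by DNA methylation laid down in the germ line. Many imprinted genes act on growth of the embryo and placenta, and several fall silent after birth and return when a tissue such as muscle regenerates. On mouse chromosome 12, Meg3, Rian and Mirg are long noncoding RNAs made from the maternal copy, while the paternal copy makes Dlk1, a membrane protein related to Notch ligands. H19 is a maternal noncoding RNA next to the growth factor Igf2. Peg3 and Plagl1 encode zinc finger proteins made from the paternal copy, Cdkn1c encodes the cell cycle inhibitor p57, and Grb10 encodes an adaptor that restrains insulin and IGF receptor signalling.

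In the annotation of the mm10 build, Meg3 lies at chr12:109541001-109571726, Rian at chr12:109603940-109661716 and Mirg at chr12:109729764-109749460, all on the plus strand. The gap from Meg3 to Rian is 32.2 kb and that from Rian to Mirg is 68.0 kb. Dlk1 lies 77.7 kb before Meg3 on the same strand, at chr12:109452823-109463336. H19 (chr7:142575529-142578143), Cdkn1c (chr7:143458339-143461050) and Peg3 (chr7:6703892-6730431) are on the minus strand of chromosome 7. Plagl1 is at chr10:13060504-13131694 on the plus strand and Grb10 at chr11:11930508-12038683 on the minus strand. Meg3 overlaps 4 annotated genes on its own strand, 2 of them miRNA genes, and 1 on the other, Gm26906. Rian overlaps 19 on its own strand, Mirg 14 and 1 on the other, H19 1 and 2 on the other, and Cdkn1c and Plagl1 each 1 on the other strand (Gm44732 and Gm27741). Counts of these 6 genes are uncertain in those stretches, while Dlk1, Peg3 and Grb10 overlap no annotated gene.

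The promoters of genes that differed in opposite directions in the nuclei with cartilage transcripts are shown first, as the RefSeq sequence of GRCm38.p6 from 250 bases before to 50 bases after the start, 5′ to 3′ on the gene's strand, with each CpG in capitals. The Meg3 promoter (chr12:109540746-109541045) holds 13 CpG and that of Peg3 (chr7:6730370-6730669) also 13, where 37.9% of 32851 promoters hold as many or more. The Rian promoter (chr12:109603695-109603994) holds 0, against a median of 7.
Meg3 promoter: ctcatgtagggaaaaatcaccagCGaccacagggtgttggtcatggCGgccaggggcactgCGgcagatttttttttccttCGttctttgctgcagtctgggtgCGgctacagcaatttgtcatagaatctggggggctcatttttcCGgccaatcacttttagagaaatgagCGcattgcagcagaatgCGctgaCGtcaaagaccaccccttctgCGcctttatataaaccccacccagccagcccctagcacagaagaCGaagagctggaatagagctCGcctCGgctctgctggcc
Peg3 promoter: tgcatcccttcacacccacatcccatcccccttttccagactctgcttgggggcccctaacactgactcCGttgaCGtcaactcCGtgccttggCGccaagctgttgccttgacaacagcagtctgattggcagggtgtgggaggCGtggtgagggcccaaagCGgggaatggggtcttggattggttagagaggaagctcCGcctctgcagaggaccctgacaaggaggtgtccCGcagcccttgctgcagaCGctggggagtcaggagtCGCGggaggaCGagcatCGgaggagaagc
Rian promoter: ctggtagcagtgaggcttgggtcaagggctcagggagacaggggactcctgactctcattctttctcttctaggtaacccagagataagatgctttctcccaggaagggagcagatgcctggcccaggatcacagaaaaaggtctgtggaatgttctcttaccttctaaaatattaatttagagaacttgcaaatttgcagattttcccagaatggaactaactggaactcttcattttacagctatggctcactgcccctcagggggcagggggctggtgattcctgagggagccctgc
The letters TGACGTCA, the cAMP response element, which reads the same on both strands, occur once in the Meg3 promoter, 57 bases before the start, and once in that of Peg3, 178 bases before it. They occur in 1.79% of all promoters and in none of the other 7 windows found for these genes. The Grb10 promoter at chr11:12037371-12037670 holds 45 CpG, a number reached by 1.93% of promoters, and that of Plagl1 holds 26. A second Grb10 window, at chr11:12027922-12028221, holds 9 CpG. A second Meg3 window, at chr12:109545148-109545447, holds 1 CpG and lacks TGACGTCA.

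Noncoding transcripts of this group are also hosts of small RNAs. RefSeq places 3 mature miRNAs in Meg3, 6 in Rian, 26 in Mirg and 2 in H19, and Rian also spans 13 snoRNA genes. The 35 mature miRNAs of the 3 chromosome 12 hosts have 34 different seeds. The sequences printed here show 1 or more of each host, with the seed (bases 2 to 8) in capitals. The library captured long transcripts by their 3′ tails, and the miRNAs themselves were not measured.
mmu-miR-770-5p in Meg3: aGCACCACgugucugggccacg
mmu-miR-370-3p in Rian: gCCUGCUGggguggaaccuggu
mmu-miR-453 in Mirg: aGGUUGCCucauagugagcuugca
mmu-miR-496a-5p in Mirg: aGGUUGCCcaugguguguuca
mmu-miR-675-5p in H19: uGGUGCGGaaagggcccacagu
The 2 from Mirg, miR-453 and miR-496a-5p, are the pair that share a seed.

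The deposited MTI counts held 1446 barcodes and 5899407 unique molecular identifiers (UMIs, each a captured RNA molecule), and the filters of the study left 1127 nuclei with a median of 2364 UMIs. Clusters were named from marker genes as skeletal-like (177 nuclei), satellite cell-like (28), muscle fibre-like (100), endothelial-like (36), osteoclast-like (30), erythroid-like (33) and immune-like (458), and 3 clusters of 174, 70 and 21 nuclei stayed without a name. The paper took myogenic nuclei out of this library after its filters, whereas the satellite cell-like and muscle fibre-like nuclei were kept here. In its fracture libraries it treated such nuclei as contamination. Tissue around the tibia was cleared away before collection, so these nuclei are not a sample of the muscle as a whole. The imprinted genes were left out of the genes used for clustering. Levels are given as UMIs per 1000000 UMIs of a population (CPM) with exact Poisson 95% intervals, and ratios of CPM with the exact interval of a binomial share. Since each condition has 1 library, the intervals cover counting error only and no p-value is given. Of the barcodes, 33 also occur in the day 1 library.

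Meg3 was the member with most UMIs in the skeletal nuclei. It reached 2791 CPM there (95% interval 2690 to 2895, 2867 UMIs), against 308 CPM in satellite cell-like nuclei (236 to 396, 61 UMIs). Muscle fibre-like nuclei had 55.6 CPM (39.5 to 76.0) and immune nuclei 25.8 CPM (18.5 to 35.0). These 4 intervals are separate from one another. The lower levels of the erythroid-like nuclei (17.7 CPM, 3 UMIs), the endothelial-like nuclei (5.52 CPM, 1 UMI) and the osteoclast-like nuclei (0 UMIs, which allows up to 14.6 CPM at 3 UMIs) could not be ordered. Of the 41 Meg3 UMIs in immune nuclei, 16 were in 1 nucleus, and of the 39 in muscle fibre-like nuclei, 18 were in 1 nucleus. Among the unnamed clusters, that of 174 nuclei had 129 CPM (79.7 to 197) and that of 70 had 142 CPM (65.0 to 270). The unnamed cluster of 21 nuclei had 1 Meg3 UMI.

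Rian and Mirg, the other noncoding RNAs of the domain, had nearly the same distribution over populations. Rian was at 957 CPM in skeletal nuclei (898 to 1019) and 111 CPM in satellite cell-like nuclei (69.7 to 168). Mirg was at 142 CPM in skeletal nuclei (120 to 167) and had 4 UMIs in the 950 other nuclei together. Skeletal nuclei thus held 94.2% of the Meg3 UMIs, 94.98% of the Rian UMIs and 97.3% of the Mirg UMIs of the retained nuclei. They were 15.7% of these nuclei and held 1027216 of the 4337337 UMIs of all genes. Rian counted 0.343 UMIs per Meg3 UMI in skeletal nuclei (0.319 to 0.369), 0.361 in satellite cell-like nuclei (0.211 to 0.596) and 0.268 in immune nuclei (0.124 to 0.531), so its ratio to Meg3 did not differ between these beyond counting error.

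After each nucleus was thinned to 500 UMIs, Meg3 was found in 83 of 177 skeletal nuclei (46.9%, Clopper-Pearson 39.4 to 54.5) and in 1.31% of immune nuclei (0.482 to 2.83). The median depths before thinning were 3898 and 2913 UMIs, and the unthinned shares 70.6% and 3.93%. Rian was found in 20.3% of thinned skeletal nuclei and 0.218% of immune nuclei. Within the thinned skeletal nuclei, Rian was seen in 32.5% of the 83 with Meg3 and in 9.57% of the 94 without it. For Mirg these shares were 9.64% and 3.19%, whereas Plagl1 went the other way, with 3.61% and 9.57%. Both rest on few nuclei, 11 with Mirg (8 of them with Meg3) and 12 with Plagl1 (3 of them with Meg3).

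**Figure D1:**
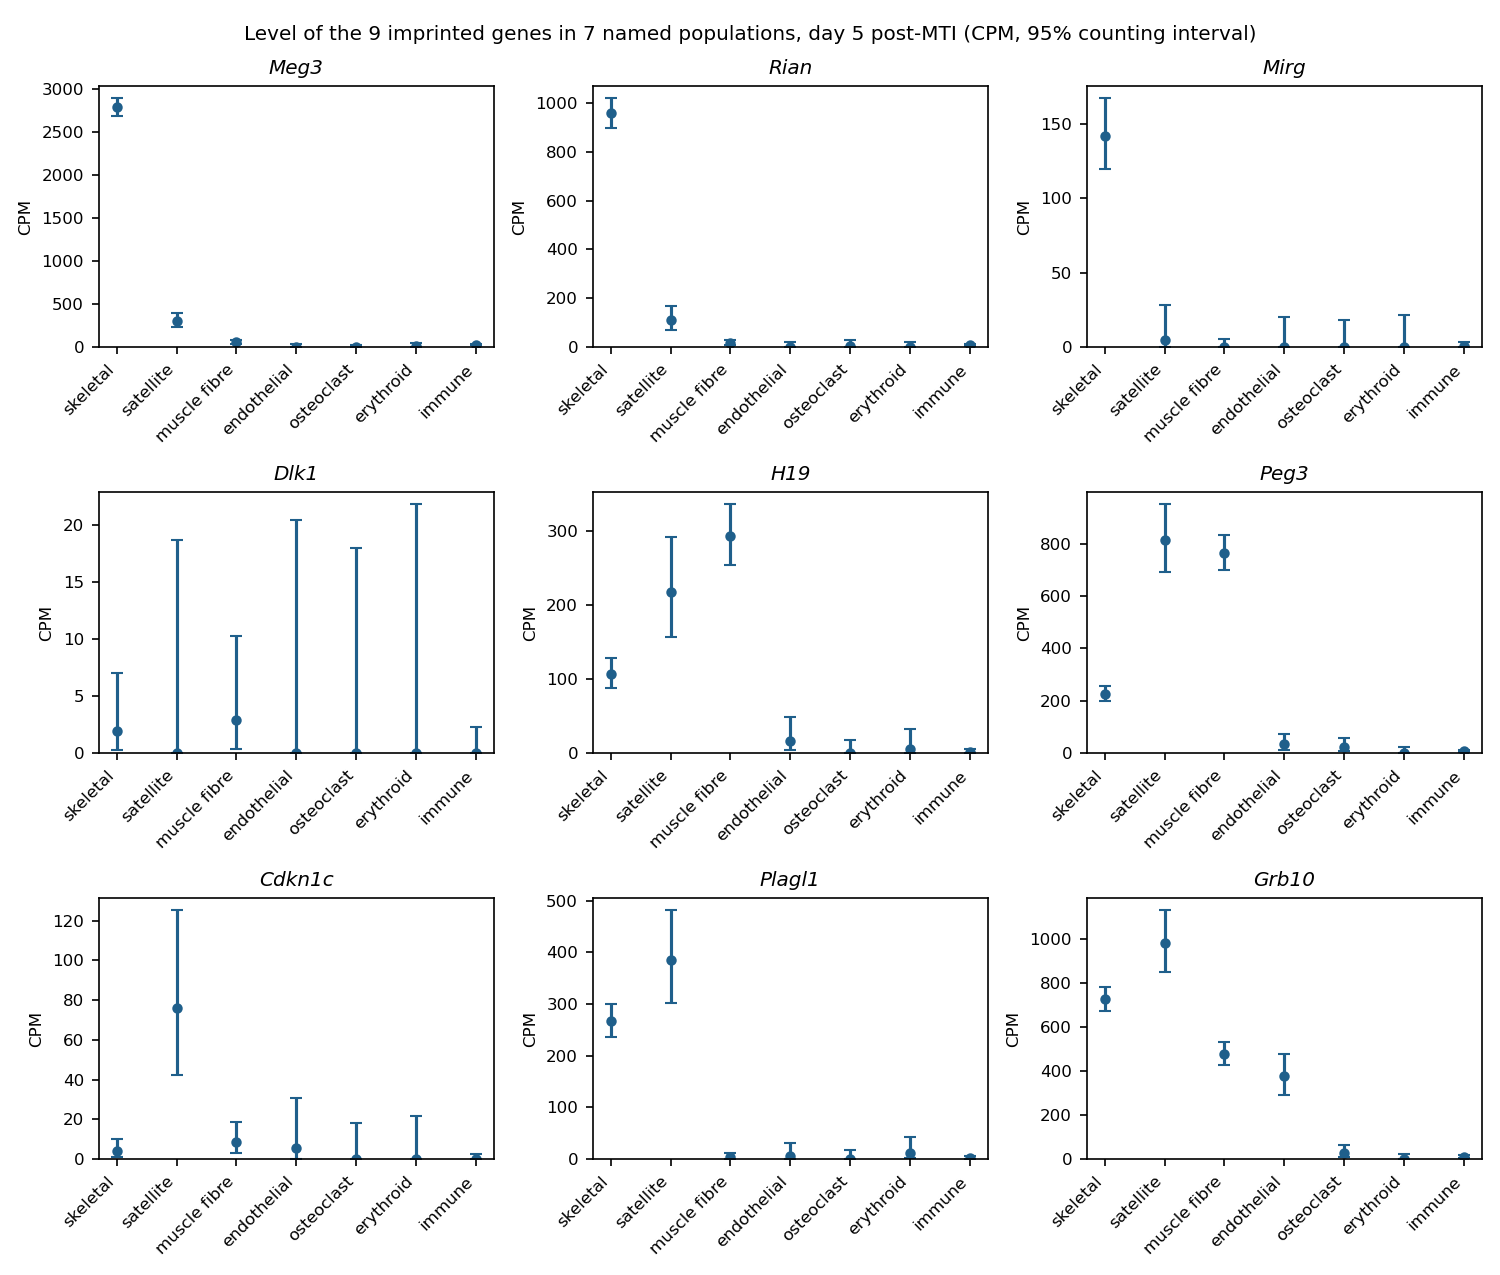
Level of each of the 9 genes (CPM, y axis, a different scale in each panel) in 7 named populations of the day 5 post-MTI library (x axis), with points for the level and bars for the 95% counting interval. Meg3, Rian and Mirg peak in skeletal nuclei (2791, 957 and 142 CPM), H19 and Peg3 in the muscle populations, and Dlk1 is near 0 throughout.

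Dlk1, the protein-coding neighbour on the paternal copy, was nearly absent. It had 5 UMIs in all 1446 barcodes, 2 in skeletal nuclei (1.95 CPM, 0.236 to 7.03), 2 in muscle fibre-like nuclei and 1 in an unnamed cluster. Rtl1, another paternal gene of the domain that lies antisense between Meg3 and Rian, had 20 UMIs in retained nuclei, 19 of them in skeletal nuclei. B830012L14Rik, a noncoding RNA between Rian and Mirg, had 328 of its 340 UMIs there, at a CPM ratio of skeletal over other nuclei of 88.1 (49.7 to 172). The same ratio was 52.5 for Meg3 (45.1 to 61.5), 60.9 for Rian (46.1 to 82.1) and 118 for Mirg (44.97 to 437). These sizes depend on which nuclei count as skeletal. At a clustering resolution of 2.0 the ratios were 13.7, 18.4 and 25.9, and with nuclei sorted by their own share of marker UMIs they were 12.1, 14.3 and 13.1.

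H19 and Peg3 were higher in the muscle populations than in skeletal nuclei. H19 had 294 CPM in muscle fibre-like nuclei (255 to 336) and 217 CPM in satellite cell-like nuclei (157 to 293), 2 levels that overlap, against 107 CPM in skeletal nuclei (88.0 to 129). Peg3 had 814 CPM in satellite cell-like nuclei (693 to 950) and 764 CPM in muscle fibre-like nuclei (700 to 831), which also overlap, and 226 CPM in skeletal nuclei (198 to 257). Immune nuclei were at 1.89 CPM for H19 and 6.28 CPM for Peg3. The ratio of skeletal over all other nuclei was 1.35 for H19 (1.07 to 1.697) and 1.03 for Peg3 (0.881 to 1.19), where the other nuclei hold both muscle and blood cells.

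Plagl1 and Grb10 were shared by skeletal and satellite cell-like nuclei. Plagl1, a transcription factor that acts on a network of imprinted genes, had 384 CPM in satellite cell-like nuclei (303 to 481) and 267 CPM in skeletal nuclei (236 to 300). It was at 4.27 CPM in muscle fibre-like nuclei (3 UMIs) and 1.89 CPM in immune nuclei. Its ratio of skeletal over all other nuclei ranged from 6.56 to 61.8 over the processing alternatives. Grb10 had 981 CPM in satellite cell-like nuclei (848 to 1129), 725 in skeletal nuclei (674 to 779), 476 in muscle fibre-like nuclei (426 to 530) and 376 in endothelial-like nuclei (292 to 476). The last 2 intervals overlap. Grb10 was the member that stood out in endothelial-like nuclei, where it was found in 23 of 36 nuclei and had 68 of the 80 UMIs of all 9 members.

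Cdkn1c had 26 UMIs in the retained nuclei, and 15 of them were in the 28 satellite cell-like nuclei (75.8 CPM, 42.4 to 125). Skeletal nuclei had 4 (3.89 CPM, 1.06 to 9.97). Of the other cyclin-dependent kinase inhibitors, Cdkn1a, Cdkn1b and Cdkn2c had at least 20 UMIs, and 0 of these 3 differed 2-fold between skeletal and other nuclei (median ratio 1.09).

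With a ratio of at least 2 and at least 20 UMIs as the limits, 5 of the 8 members with enough UMIs were higher in skeletal than in other nuclei, where 15.2% of 12746 genes were. The members were Meg3, Rian, Mirg, Plagl1 and Grb10. Their median ratio, over the 8, was 6.36 against 0.905 over all genes. Of 71 other imprinted genes, 47 had enough UMIs, 12 were at least 2-fold higher in skeletal nuclei, 13 at least 2-fold lower, and their median ratio was 0.890. Decorin (Dcn), a matrix proteoglycan imprinted in placenta, was higher with a ratio of 31.3 (21.6 to 46.9), whereas Igf2 was lower at 0.0304 (1 of its 107 UMIs in skeletal nuclei). Of the 6 nuclear noncoding RNAs that are not imprinted, 3 were at least 2-fold higher in skeletal nuclei, among them Dnm3os, the host of miR-199 and miR-214 (38.3, 29.2 to 51.1). Of 9 receptors and partners of DLK1 and growth factor signalling, 1 was higher (Irs1, 7.02, 5.93 to 8.34) and 2 lower (Notch1 and Notch4). The share of all genes at least 2-fold lower in skeletal nuclei was not computed. The counts of lower genes are thus given without it.

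Over the 7 named populations, the genes whose log2 CPM followed Meg3 most closely were Lgr5, a co-receptor for R-spondins (Pearson r = 0.993), Kif26b (r = 0.986) and Xkr4 (r = 0.978). For Rian they were Pde1a (r = 0.988), Epha3 (0.983) and B830012L14Rik (0.982), and for Mirg Ebf2 (0.992), Prkg2 (0.992) and Smpd3 (0.989). H19 was followed by Palld (0.992), Col13a1 (0.9903) and Rab27b (0.987), and Peg3 by Pard3, a cell polarity gene (0.983), and Igdcc4 (0.982). For Plagl1 they were Srpx2 (0.985), Gfra1 (0.983) and Creb3l1 (0.979), and for Grb10 Nedd4, a ubiquitin ligase that binds GRB10 (0.984), Tead1 (0.980) and Spats2 (0.978). These are descriptions over 7 populations of 1 library, out of 6867 genes searched, and they share the depth and composition of that library.

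The skeletal nuclei were then divided. Reclustering gave a cluster of 107 nuclei with a median of 7859 UMIs and one of 70 nuclei with a median of 1458.5 UMIs. The first had 5750 CPM of 10 cartilage genes (Acan, Col2a1, Sox9 and others) against 1663 CPM in the second, and is called the chondrogenic side by this sum. Col11a1 made up most of its sum, at 3271 against 797 CPM, and Sox9 did not differ (104 and 103 CPM). Of the cartilage UMIs, 3927 lay in the 10 nuclei with most Acan and Col2a1, 9 of them in the first cluster. The other 167 skeletal nuclei had 1619 CPM. The second is the Dpp4 side only by elimination, since the 9 genes of that side (Dpp4, Pi16, Cd34, Pgr and others) summed to 1603 CPM there and 1546 CPM in the first. Fbn1 made up most of both sums, at 909 and 1094 CPM. Dpp4 itself was at 77.1 CPM in the second (9 UMIs) and 45.03 CPM in the first (41 UMIs), and Cd55 at 111 and 32.9 CPM. The summed list thus did not tell the clusters apart, while some of its genes were higher in the second on few UMIs, and the 2 are called the clusters of high and low depth. At a clustering resolution of 2.0, 54 of the 70 nuclei of the low-depth cluster fell in clusters named pericyte or smooth muscle-like. Summed markers of that type were at 754 CPM in it and 463 CPM in the high-depth cluster, and their part in the differences was not tested.

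Of the 7 members with at least 20 UMIs, 6 had a ratio above 1 between these clusters, and H19 had 0.753 (0.440 to 1.37). The median ratio over all genes was itself above 1, at 1.14, and the share of genes above 1 was not computed. Plagl1 had 288 CPM in the high-depth and 103 CPM in the low-depth cluster (ratio 2.80, 1.57 to 5.48), Peg3 239 and 120.0 CPM (1.995, 1.16 to 3.71), and Grb10 772 and 360.0 CPM (2.14, 1.57 to 3.002). Of the skeletal UMIs, 170 of 274 for Plagl1 and 145 of 232 for Peg3 lay in the 10 nuclei with most Acan and Col2a1. Of these nuclei, 9 are in the high-depth cluster, and the ratios without them were not computed. Meg3 had 2876 and 2126 CPM (1.35, 1.19 to 1.55). With a fold of 1.5, 4 of 7 were higher in the high-depth cluster, where 30.1% of 7231 genes were, and 0 of 7 were lower, where 15% of genes were. The 4 were Mirg, Peg3, Plagl1 and Grb10. Most skeletal UMIs of Peg3 and Plagl1 lay in the 10 nuclei, so the count rests in part on them. The Meg3 ratio turned over in 3 of the processing alternatives, to 0.556 with a minimum of 500 genes, 0.384 with a mitochondrial limit of 0.5% and 0.257 when nuclei were sorted singly on their share of marker UMIs.

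At the doubled subset resolution 4 skeletal clusters appeared. A cluster of 64 nuclei had the highest Postn and Aspn, markers of injury-induced fibrogenic cells (IIFCs). A cluster of 45 was led by Slc8a3, Myh11, Slc13a5 and Col10a1 and held 10521 CPM of cartilage genes. Another, of 63 nuclei, was shallow, with a median of 1322 UMIs. The last, of 5 nuclei, was led by Pgr and Dpp4, markers of fibroblast-like progenitors. It had 7754 CPM of the Dpp4-side genes and 0 UMIs of the cartilage genes. The pericyte or smooth muscle markers were at 816 CPM in the Slc8a3 and Col10a1 cluster, 391 CPM in the shallow one and 249 CPM in the Postn and Aspn cluster, with 0 UMIs in the 5 nuclei.

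Meg3 was highest in the 5 Dpp4 and Pgr nuclei, which had 18, 18, 42, 47 and 82 Meg3 UMIs. The 2 nuclei with 18 had 1 Dpp4 and 0 Pgr UMIs each, the other 3 had 5 to 19 Dpp4 UMIs, and a nucleus of the shallow cluster with 4 Dpp4 and 3 Pgr UMIs had 0 of Meg3. Together the 5 had 6499 CPM (5643 to 7447), against 3359.5 CPM in the Slc8a3 and Col10a1 cluster (3190 to 3536), 2207 CPM in the Postn and Aspn cluster (2074 to 2347) and 1756 CPM in the shallow one (1499 to 2044). Rian did not follow, with 1036 CPM (713 to 1455) in the 5 nuclei and 892 CPM (808 to 982) in the Postn and Aspn cluster. Rian per Meg3 UMI was 0.159 in the 5 nuclei (0.107 to 0.231) and 0.404 in the Postn and Aspn cluster (0.359 to 0.453).

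Peg3 had 0 UMIs in the Dpp4 and Pgr nuclei, which allows up to 94.2 CPM, and H19 had 1. Over the Postn and Aspn cluster, 1 of 7 members was at least 1.5-fold higher in them (Meg3, ratio 2.94, 2.52 to 3.42), against 21.7% of genes, and 2 were lower, against 43.1% of genes. Those 2 are H19 (0.269, 0.00668 to 1.56, on 1 UMI) and Peg3 (0, 0 to 0.889), and the interval of H19 includes 1. In the Slc8a3 and Col10a1 cluster over the same reference, 3 of 7 were higher (Meg3, Peg3 and Plagl1), against 20.2% of 6729 genes, and 0 lower, against 16.2%. For Peg3 and Plagl1 the excess lay in 9 of its 45 nuclei, described below. The Meg3 ratio of 1.52 fell to 1.42, under that fold, without the top nucleus of each cluster, which in the Slc8a3 and Col10a1 cluster held 202 of 1474 Meg3 UMIs. The 5 nuclei are few, and the values are of 1 library.

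The Slc8a3 and Col10a1 cluster was not uniform. Its cartilage transcripts lay in a few nuclei that could be taken apart by their own counts, with a limit set after the values were seen. Of the 177 skeletal nuclei, 10 had at least 10 UMIs of Acan and Col2a1, which encode the main proteoglycan and collagen of cartilage. They held 1027 of the 1085 UMIs of the pair. The lowest of them had 39 and the highest nucleus outside had 7, with 6 nuclei outside at 3 or more. Of the 10, 9 were in the Slc8a3 and Col10a1 cluster and 1 in the shallow one.

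Plagl1 and Peg3 were concentrated in these nuclei. The 10 nuclei had 2, 2, 3, 6, 9, 12, 22, 22, 36 and 56 Plagl1 UMIs, while 39 of the 167 other skeletal nuclei had any. In CPM this was 1719 (1470 to 1998) against 112 (91.5 to 136), a ratio of 15.3 (11.95 to 19.8). Peg3 counted 1, 4, 6, 6, 14, 15, 16, 21, 23 and 39 UMIs, at 1466 CPM (1237 to 1725) against 93.7 CPM (75.1 to 116), a ratio of 15.6 (11.9 to 20.7). Both ratios are of sums over the nuclei, and 1 nucleus had only 1 Peg3 and 2 Plagl1 UMIs. Without the top nucleus of each group the ratios were 13.5 for Plagl1 and 17.2 for Peg3. After thinning to 500 UMIs, Plagl1 was found in 7 and Peg3 in 5 of the 10 nuclei, and each in 2.99% of the 167 others. In thinned immune nuclei Plagl1 was found in 0 of 458 and Peg3 in 0.437%. RNA free in the droplets was not measured in this library.

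Zim1, a zinc finger gene 7.44 kb from Peg3 in the same imprinted domain, was higher in the same nuclei. It had 105 UMIs there (1062 CPM) and 20 in the other skeletal nuclei (21.5 CPM), and 8 of the 10 nuclei had at least 1. Grb10 was at 1588 CPM (1349 to 1856) against 633 CPM (583 to 687), a ratio of 2.51 (2.09 to 2.99). H19 was at 253 CPM (164 to 373) against 91.6 CPM (73.1 to 113), but 15 of its 25 UMIs came from 1 nucleus, and without the top nucleus of each group its ratio of 2.76 fell to 1.36.

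Meg3 and Rian went the opposite way. The 10 nuclei had 0, 0, 0, 0, 1, 3, 7, 10, 19 and 62 Meg3 UMIs, and the nucleus with 62 held 60.8% of them. It is the one with the lowest Peg3 count (1 UMI), with 2 of Plagl1 and 0 of Zim1, and it has 17 of the 28 UMIs of Postn in the 10 nuclei. Meg3 was at 1031.5 CPM (841 to 1252) against 2978.5 CPM in the other skeletal nuclei (2869 to 3092), a ratio of 0.346 (0.281 to 0.422), and of 0.168 without the top nucleus of each group. Rian was at 354 CPM (247 to 492) against 1021 CPM (957 to 1088), a ratio of 0.347 (0.240 to 0.486). Mirg had 8 UMIs (0.544, 0.230 to 1.10), and its interval includes 1.

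So 4 of 7 members were at least 1.5-fold higher in the 10 nuclei (H19, Peg3, Plagl1 and Grb10), where 22.6% of genes were, and 3 were lower (Meg3, Rian and Mirg), where 38.3% were. The share lower is near that of all genes. Of those counted, H19 was at 1.36 without the top nucleus of each group, and the interval of Mirg includes 1. The markers of IIFCs were also lower, at 809 CPM in the 10 nuclei and 7848 CPM in the others. The 36 other nuclei of the Slc8a3 and Col10a1 cluster had 4013 CPM of Meg3 (3803 to 4231) and 52.6 CPM of Peg3 (31.2 to 83.1). Plagl1 was at 70.1 CPM in them (44.9 to 104). The Postn and Aspn cluster had more of both, 134 CPM of Peg3 (103 to 172) and 141 CPM of Plagl1 (109 to 179). The 36 nuclei held 1020.0 CPM of the pericyte or smooth muscle markers, against 91.01 CPM in the 10 nuclei. The part of these markers in the Meg3 level was not tested. The summed level of that cluster thus joined nuclei with much Meg3 and little Peg3 to nuclei with the reverse. The 10 nuclei were deeper than the other skeletal nuclei, with a median of 9310.5 against 3420 UMIs, and nearly as deep as the 36 of their cluster (9315.5).

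**Figure D2:**
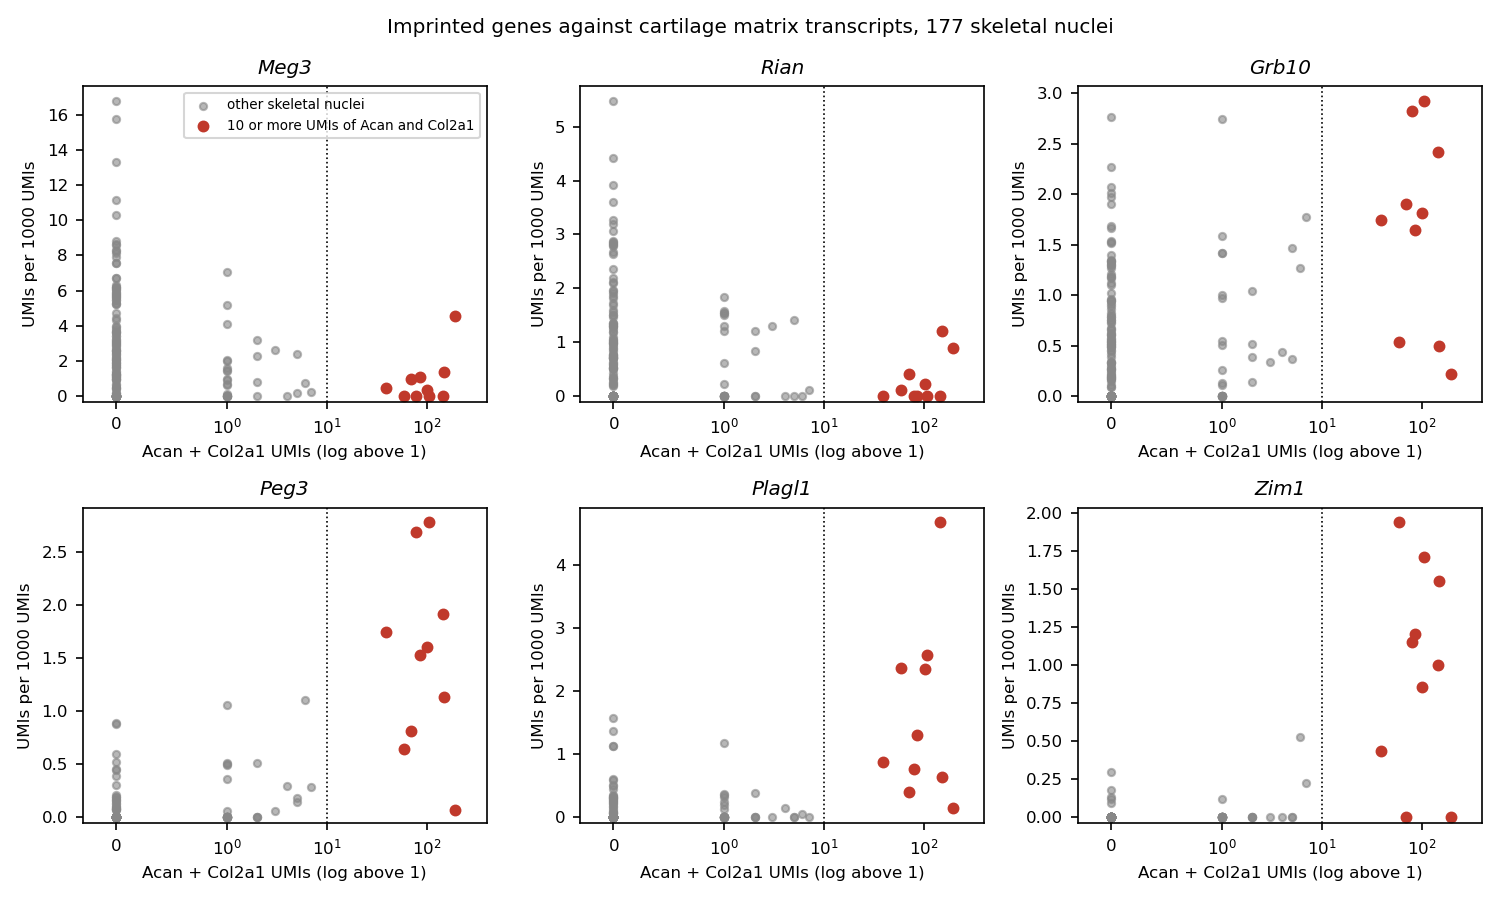
UMIs of 6 imprinted genes per 1000 UMIs of the nucleus (y axis) against the UMIs of Acan and Col2a1 (x axis, log scale above 1) in 177 skeletal nuclei, 1 point each, with the 10 nuclei past the limit of 10 UMIs (dotted line) in red. Most red nuclei are high for Peg3, Plagl1 and Zim1 and low for Meg3, and the one with 62 Meg3 UMIs is low for the first 3 genes.

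A small group with osteoblast transcripts differed again. Of the skeletal nuclei outside the 10, 6 had at least 10 UMIs of Sp7, Alpl, Ibsp, Ifitm5 and Bglap, a limit also set after the values were seen, with 2 further nuclei at 5 to 9 UMIs. Their median depth was 15641 UMIs, against 3364 in the nuclei with neither set of markers. They had 224 CPM of Meg3 (137 to 346) and 22.4 CPM of Rian (2 UMIs), against 3272 and 1127.5 CPM in those 161 nuclei. Peg3 was at 381 CPM (264 to 532) against 63.2 CPM (47.3 to 82.6), while Plagl1 had 4 UMIs (44.8 CPM, 12.2 to 115) against 119 CPM (97.0 to 145). Of the 34 Peg3 UMIs, 21 were in 1 nucleus, and the Peg3 ratio of 6.03 fell to 3.19 without the top nucleus of each group. The 2 nuclei with the most osteoblast UMIs, 168 and 50, had 0 Peg3 UMIs and 0 of Acan and Col2a1. The other 4 had 7, 6, 5 and 4 UMIs of Acan and Col2a1, below the limit of 10. In that order they had 5, 21, 2 and 6 Peg3 UMIs. The part of cartilage transcripts in this Peg3 level was not tested. Some of the 10 Acan and Col2a1 nuclei, with 11, 13 and 21 osteoblast UMIs, also passed this limit and were not counted here. They had 14, 6 and 21 Peg3 UMIs, 12, 22 and 6 Plagl1 UMIs and 10, 0 and 0 Meg3 UMIs.

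The same marker limits were applied to the 319 barcodes that the filters had removed for low or high gene number or for mitochondrial or ribosomal content, which entered no clustering. There, 9 barcodes had at least 10 UMIs of Acan and Col2a1 and 45 others had at least 10 of the IIFC markers. The ratio between them was 19.5 for Plagl1 (12.7 to 30.9), 15.8 for Peg3 (11.2 to 22.7), 18.96 for Zim1 (8.78 to 45.4) and 5.11 for H19 (3.32 to 7.84). For Meg3 it was 0.604 (0.503 to 0.720), with its 138 UMIs in 2 of the 9 barcodes. For Rian it was 0.627 (0.464 to 0.832). The directions in the removed barcodes were those of the retained nuclei by the same limits, where the 11 and 121 nuclei gave 9.42 for Plagl1, 8.60 for Peg3 and 0.319 for Meg3.

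**Figure D3:**
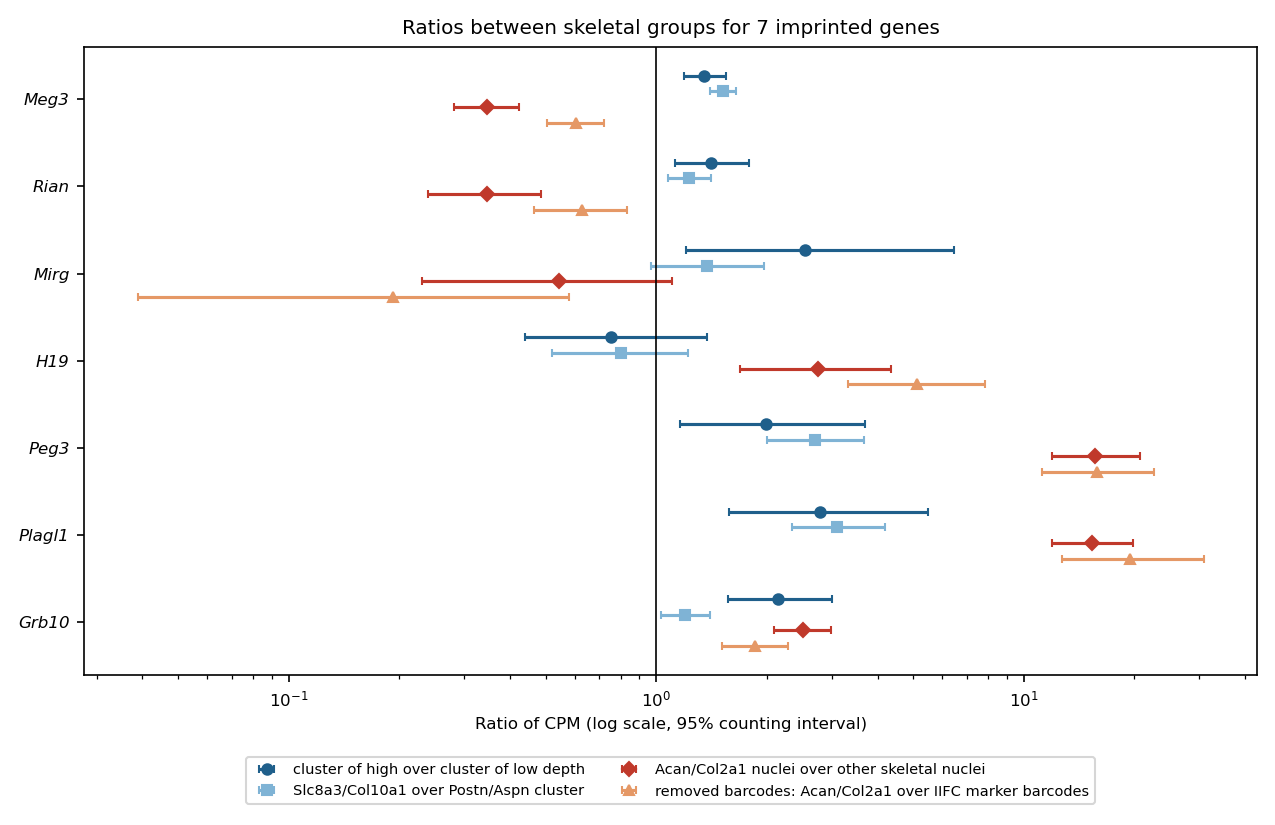
Ratio of CPM (x axis, log scale) for 7 imprinted genes (y axis) in 4 comparisons of skeletal nuclei or barcodes, with bars for the 95% counting interval and a line at 1. Meg3 lies above 1 between clusters (1.35 and 1.52) and below 1 between nuclei split by Acan and Col2a1 (0.346 and 0.604), while Peg3 and Plagl1 lie above 1 in each. The comparisons among retained nuclei share 9 Acan and Col2a1 nuclei, so their Peg3 and Plagl1 ratios are not separate results.

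Other imprinted genes were followed between the clusters of high and low depth. Of 24 with at least 50 UMIs in skeletal nuclei, 3 had a ratio of at least 2, where 17.8% of 7231 genes did. They were Zim1 (15.9, 2.80 to 632), Mest, the hydrolase-like gene also called Peg1 (3.20, 1.34 to 10.0), and Zfp64 (2.48, 0.807 to 12.4). Mest was at 216 CPM in the Postn and Aspn cluster and 50.6 CPM (5 UMIs) in the 10 Acan and Col2a1 nuclei, so it did not go with Zim1. The noncoding RNAs Airn and Kcnq1ot1, which silence genes beside them on the paternal copy, differed little between skeletal and other nuclei (ratios 1.18 and 1.40).

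Among the muscle nuclei of the callus library, those named fibre-like fell into 2 clusters at a resolution of 2.0. One, of 27 nuclei, had Myh8 and Myh3 among its 10 leading genes, which encode the perinatal and embryonic myosin heavy chains of newly formed fibres. The other, of 73 nuclei, was led by genes of mature fibres such as Myh2 and Car3. Grb10 was at 1045 CPM (931 to 1170) in the first and 75.2 CPM (51.1 to 107) in the second, a ratio of 13.9 (9.58 to 20.8). It was present in 24 of 27 and 13 of 73 nuclei, whose median depths were 11087 and 4735 UMIs.

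H19 and Peg3 followed Grb10. H19 was at 573 CPM (489 to 667) against 97.1 CPM (69.4 to 132), and Peg3 at 1280 CPM (1153 to 1417) against 400.5 CPM (342 to 466), ratios of 5.90 (4.16 to 8.55) and 3.20 (2.65 to 3.86). All 4 members with enough UMIs were at least 2-fold higher in the Myh3 and Myh8 nuclei, where 12.5% of 4980 genes were. The fourth is Meg3 (2.54, 1.27 to 5.28), for which 18 of the 25 UMIs came from 1 nucleus. Plagl1 had 1 UMI in the first and 2 in the second.

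Other imprinted genes were more often higher than lower in the Myh3 and Myh8 nuclei. Of 30 with at least 20 UMIs in the fibre nuclei, 11 were at least 2-fold higher there, where 12.5% of 4980 genes were. Another 2 were at least 2-fold lower, where 12.7% of genes were, and the median ratio of the 30 was 1.24. The lower ones were Atp10a (0.120, 0.0377 to 0.297) and Bcl2l1 (0.492, 0.203 to 1.08), and the interval of Bcl2l1 includes 1. Snrpn, which encodes a splicing protein and is itself among the leading genes of that cluster, was at 480 CPM against 12.1 CPM, and Zdbf2 at 445 against 53.4 CPM. Igf2, the neighbour of H19, was at 259 against 51.0 CPM and had 1 UMI in all skeletal nuclei. Nctc1, a muscle noncoding RNA 16.9 kb from H19, was at 345 against 439 CPM and did not follow it.

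Satellite cell-like nuclei, the muscle stem and progenitor population, carried a wider set. At a fold of 2, 5 of 7 members were higher in them than in fibre-like nuclei, where 21.7% of 6162 genes were. Plagl1 had the widest gap, with 76 UMIs in 28 nuclei against 3 in 100 (ratio 89.9, 29.6 to 446). Cdkn1c was at a ratio of 8.87 (3.25 to 27.9), Rian of 7.10 (3.30 to 16.2), Meg3 of 5.55 (3.65 to 8.52) and Grb10 of 2.06 (1.72 to 2.47). The 61 Meg3 UMIs lay in 6 of the 28 nuclei. Peg3 was found in 24 of 28 and H19 in 13 of 28. Against the sum of all fibre-like nuclei, both were within counting error, at 1.07 (0.888 to 1.27) and 0.741 (0.520 to 1.03). For both, satellite cell-like nuclei lay below the Myh3 and Myh8 nuclei and above the other fibre nuclei, with separate intervals. They had 814 CPM of Peg3 (693 to 950) and 217 CPM of H19 (157 to 293). Their Grb10 level of 981 CPM (848 to 1129) overlapped that of the Myh3 and Myh8 nuclei, 1045 CPM (931 to 1170).

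**Figure D4:**
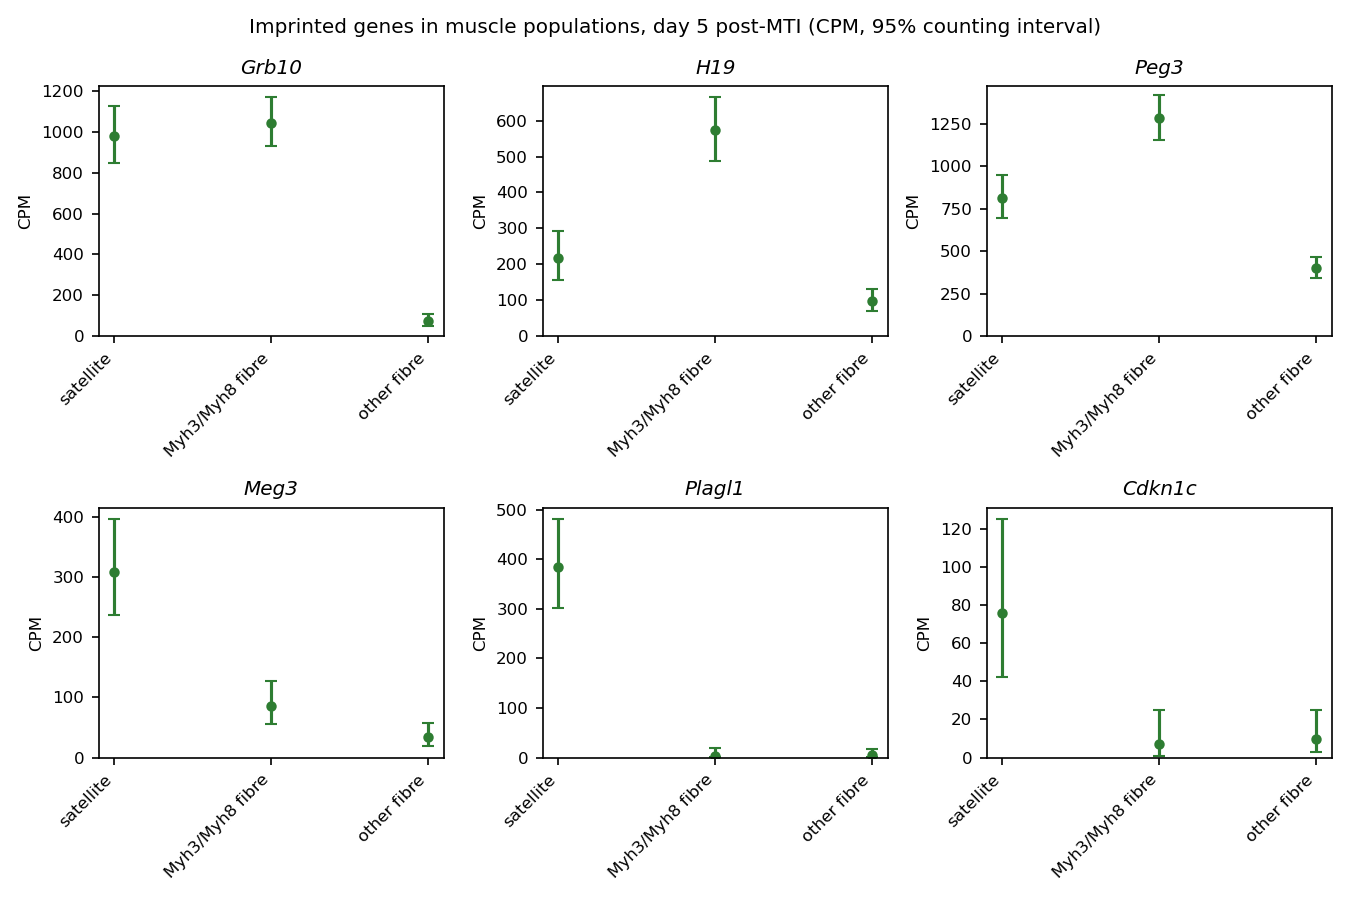
Level of 6 imprinted genes (CPM, y axis, a different scale in each panel) in satellite cell-like nuclei and in the 2 clusters of muscle fibre-like nuclei (x axis), with bars for the 95% counting interval. Grb10, H19 and Peg3 are higher in the Myh3 and Myh8 nuclei than in the other fibre nuclei, while Plagl1 and Cdkn1c are highest in satellite cell-like nuclei.

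The day 1 library, of the periosteum and hematoma after fracture, was much shallower, with a median of 409 UMIs in 2405 retained nuclei. Barcodes under 200 genes, taken as a measure of RNA free in the droplets, had 24.5 CPM of Meg3 (20.96 to 28.5) and 84.1 CPM of Peg3 (77.4 to 91.3). The 74 skeletal-like nuclei had 1 Meg3 UMI (26.0 CPM, 0.659 to 145) and 156 CPM of Peg3 (6 UMIs), neither of which could be told from free RNA at this depth. In a cluster of 171 unnamed nuclei led by Atf3, Nes and Egr1, Meg3, itself among the leading genes, reached 264 CPM (169 to 393), 10.8 times the free RNA (6.71 to 16.6). Peg3 was at 352 CPM there, 4.19 times the free RNA (2.84 to 5.98), whereas Grb10 had 2 UMIs there. Peg3 was not higher in that cluster alone. It reached 397 CPM in an unnamed cluster led by Cpt1b, Ankrd2 and Ptcd3, 4.72 times the free RNA (3.37 to 6.46), and was at 2.13 times the free RNA over all retained nuclei.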

How the data were processed

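The authors aligned reads with Cell Ranger 7.0.1 to mouse mm10 and deposited raw counts, the UMIs of 32285 genes in every barcode (the labels name a human reference, but the gene identifiers are of mouse). Nuclei with 200 to 5000 genes, a mitochondrial share below 5% and a ribosomal share below 2% were kept, after the study. Seurat 5.3.0 in R 4.3.3 clustered them on 2000 variable genes without imprinted ones, with 30 components and a resolution of 1. Names needed 3 markers and a 1.5-fold excess, and the use of immune subclass markers was added after the first result was seen. Skeletal nuclei were reclustered with 15 components at a resolution of 0.5, and doubled to 1 for 4 clusters. The day 1 library was filtered at 0.5% mitochondrial and 2.5% ribosomal share and clustered with 20 components at a resolution of 1.7, without imprinted genes. Scrublet (scanpy 1.11.5) called 0 of 1398 barcodes, so doublets were in effect not removed.

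UMIs were summed per population with Python 3.11.15 and scipy 1.17.1. The ratios and their intervals were checked on simulated Poisson counts, the model that the intervals assume. That check left out differences between nuclei of a group. Ratios were used for genes with at least 20 UMIs over both groups. Alternatives changed filters, clustering settings, thinning and the assignment of sides. The members and lists were chosen with earlier results of these data known. Named were the members, other imprinted genes with 50 skeletal UMIs and a 2-fold difference between sides, and the 3 genes most like a member, of which 1 is not reported here. Other imprinted genes were named after their values were seen, as were the splits by Acan and Col2a1, by osteoblast markers and of the fibre nuclei. Sequences are from RefSeq (GRCm38.p6) and positions from GENCODE.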

Additional observations from a re-analysis of the deposited data

Results flagged for a closer look

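Signal was present in barcodes that the comparisons between populations do not use. The 319 barcodes removed by the filters had 964 CPM of Meg3, 357 CPM of Rian and 64.0 CPM of Mirg, above the limit of 3 UMIs, which is 1.92 CPM there. H19 was at 94.1 CPM, Peg3 at 193 CPM, Plagl1 at 85.1 CPM, Grb10 at 444 CPM and Cdkn1c at 7.04 CPM, while Dlk1 had 0 UMIs. Of the 1506 Meg3 UMIs in them, 978 lay in the 21 barcodes with more than 5000 genes, whose median was 27610 UMIs.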

How the results depend on the processing

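No paired analysis was possible because each condition has 1 library, and no library could be left out. The count of 5 members at least 2-fold higher in skeletal nuclei was the same in 13 alternatives chosen with earlier results known. In these the Meg3 ratio ranged from 12.1 to 87.1. After thinning to 500 UMIs the 5 were not the same members. Mirg gave no ratio there, and H19 was counted instead at 2.33 (0.991 to 5.10), an interval that includes 1. Between the high-depth (chondrogenic) and low-depth (Dpp4) sides the results moved. The 4 members higher in the first ranged from 2 to 6. They became 2 at a subset resolution of 1. They became 6 with no maximum of genes, a ribosomal limit of 5%, imprinted genes kept or nothing regressed out. They were also 2 after thinning, where Mirg, Peg3 and H19 fell under the limit of 20 UMIs and gave no ratio. Mirg and Peg3 are among the 4, so the count after thinning cannot show whether they changed. The 0 members higher in the second became 1 with a minimum of 500 genes, 1 with no maximum of genes, 1 with imprinted genes kept in clustering, and 3 each with a mitochondrial limit of 0.5%, with sides by marker share and, chosen after seeing the data, with sides by Acan and Col2a1. The Meg3 ratio of 1.35 became 1.89 with no maximum, 1.76 with imprinted genes kept and 2.10 with nothing regressed out. It reversed to 0.556 with a minimum of 500 genes, 0.384 with the mitochondrial limit, 0.257 by marker share and 0.346 by Acan and Col2a1. In the same order Rian reversed from 1.41 to 0.687, 0.293, 0.289 and 0.347, and Mirg from 2.54 to 0.743, 0.347, 0.298 and 0.544. The cause was not tested. A resolution of 2.0 named 79 nuclei pericyte or smooth muscle-like, left the remaining skeletal nuclei undivided and gave no side values. Few UMIs limit Dlk1 and Cdkn1c, and the number of nuclei limits the groups of 5, 6 and 10.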

Other observations

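Satellite cell-like nuclei held further imprinted genes. Mest was at 399 CPM (316 to 498) there and at 4.27 CPM (3 UMIs) in muscle fibre-like nuclei. Zim1, the neighbour of Peg3, was at 440 CPM (352 to 542.5) and 121 CPM (96.7 to 150). Kcnq1ot1, the noncoding RNA that silences genes of the Cdkn1c domain, was at 1355 CPM (1197 to 1527) and 664 CPM (605 to 727). Nctc1, next to H19, had the reverse distribution, with 1 UMI in satellite cell-like nuclei and 400.4 CPM (355 to 450.04) in fibre-like nuclei.

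Among the skeletal nuclei, other imprinted genes differed in both directions. In the 10 Acan and Col2a1 nuclei, B830012L14Rik was at 60.7 CPM (22.3 to 132) against 347 CPM in the other skeletal nuclei, and Dcn at 60.7 CPM against 318 CPM (283 to 356). Atp10a, a phospholipid transporter, was at 455 CPM (332 to 609) against 184 CPM (158 to 214), and Osbpl5 at 142 CPM (77.4 to 238) against 49.6 CPM (36.3 to 66.1). Dcn was highest in the 6 nuclei with osteoblast markers, at 818 CPM (641 to 1028).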
